A study of Mus musculus with 24 samples.

Results

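The levels of 10 core circadian clock genes were followed in mouse liver after diethylhexylphthalate (DEHP), a phthalate plasticizer that causes liver tumours in rodents without damaging DNA, or its vehicle, corn oil. The genes were Arntl, Clock, Npas2, Per1, Per2, Per3, Cry1, Cry2, Nr1d1 and Nr1d2, and they are 10 of the 18194 genes that the Affymetrix arrays measured with a probe set of their own. Each gene was read from 1 probe set, the one with the highest mean log2 signal over all 24 arrays, out of 23 probe sets annotated to the 10 genes. The liver RNA came from male B6C3F1 mice that were 7 to 10 weeks old when they arrived and ate a standard rodent diet. The treated mice received DEHP in corn oil by oral gavage, a tube into the stomach, at 1150 mg per kg body weight per day, and the controls the same volume of corn oil alone. Livers were taken at 2, 8, 24 and 72 h, which gives 8 groups of 3 arrays. The design text speaks of 6 mice and of a dose every 24 h for 3 days, and the labels give neither how many doses came before the 24 and 72 h livers nor the clock time of dosing and killing. The arrays measured whole liver, so fewer cells of a type and less RNA per cell cannot be told apart. The labels do not tie the 3 arrays of a group to separate animals, so the p-values measure only the spread between these arrays, which may be technical.

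In RefSeq's annotation of build GRCm38.p6, Arntl spans chr7:113178471-113314126, Clock chr5:76209868-76305603 and Npas2 chr1:39193702-39363240. Per1 spans chr11:69095108-69109965, Per2 chr1:91415977-91459351 and Per3 chr4:150997018-151044707. Cry1 spans chr10:85131700-85185054 and Cry2 chr2:92403646-92434085, and Nr1d1 spans chr11:98767932-98775377 and Nr1d2 chr14:18204056-18239106. Where in the transcripts the probes lie was not analysed here.

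The circadian clock is a feedback loop of transcription factors that runs in nearly every cell. BMAL1, the product of Arntl, pairs with CLOCK, or with its close relative NPAS2, and binds E-box sequences to switch on the Per, Cry and Nr1d genes. PER and CRY proteins then enter the nucleus and repress that pair, so their own transcription falls again. The REV-ERB nuclear receptors, made by Nr1d1 and Nr1d2, repress Arntl, Clock, Npas2 and Cry1, which puts these genes out of phase with the others. In liver the loop sets the daily course of genes for lipid, glucose and bile acid metabolism, partly through the D-box binding factors DBP, TEF and HLF and their repressor NFIL3.

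RefSeq sequences of the 250 bases before the transcript start (build GRCm38.p6) covered 9 of the 10 genes, all but Per2, in 13 windows. They were searched on both strands for the E-box CACGTG, its variant CACGTT, the D-box TTANGTAA and the letters AGGTCA, the core of the REV-ERB and ROR element. Of all 32851 such windows in the table, 6.02% held CACGTG, 3.85% CACGTT, 2.06% TTANGTAA and 14.02% AGGTCA, and 7 of the 9 clock genes held at least 1 of the 4 in any of their windows, as did 26.7% of the 27025 genes in the table. CACGTG stood in a window of Per1 and of Cry1, and AGGTCA in a window of Clock, of Per1 and of Nr1d2. The Per1 and Clock windows with these matches precede a transcript start within the gene and lie inside its annotated span. The windows of Per3, Cry1, Cry2 and Nr1d1 are printed here. Per3 had the widest course over time in the control livers, and the other 3 were called different after DEHP at 2 or 72 h. Arntl and Clock were called too, but their windows lie inside the annotated genes and are not printed. The Per3 and Cry2 windows are cut where the annotated gene begins, capitals mark the matches, and AACGTG is CACGTT read on the opposite strand. Per3 lies on chr4:151044708-151044915, Cry1 on chr10:85185055-85185304, Cry2 on chr2:92434086-92434319 and Nr1d1 on chr11:98775378-98775627, all on the minus strand and all upstream of the gene.
Per3: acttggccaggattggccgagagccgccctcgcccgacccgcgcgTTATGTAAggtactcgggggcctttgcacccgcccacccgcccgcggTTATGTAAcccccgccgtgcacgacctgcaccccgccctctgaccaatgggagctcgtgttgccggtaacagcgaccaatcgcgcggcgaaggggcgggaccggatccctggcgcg
Cry1: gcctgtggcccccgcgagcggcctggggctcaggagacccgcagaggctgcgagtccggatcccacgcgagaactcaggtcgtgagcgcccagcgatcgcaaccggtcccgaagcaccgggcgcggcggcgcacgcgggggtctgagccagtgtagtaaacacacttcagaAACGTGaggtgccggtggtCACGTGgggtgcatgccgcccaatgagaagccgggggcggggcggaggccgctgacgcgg
Cry2: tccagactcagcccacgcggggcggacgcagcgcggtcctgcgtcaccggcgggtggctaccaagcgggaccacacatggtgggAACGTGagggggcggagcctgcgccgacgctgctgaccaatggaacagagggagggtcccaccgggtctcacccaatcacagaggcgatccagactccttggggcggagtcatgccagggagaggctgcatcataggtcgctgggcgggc
Nr1d1: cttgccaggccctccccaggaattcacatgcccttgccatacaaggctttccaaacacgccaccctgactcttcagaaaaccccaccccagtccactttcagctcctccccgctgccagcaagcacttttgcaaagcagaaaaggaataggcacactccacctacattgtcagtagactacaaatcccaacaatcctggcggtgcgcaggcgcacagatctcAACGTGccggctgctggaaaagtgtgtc
Per3 held the D-box letters in 2 places, 205 and 158 bases before the start, and no other member with a window held them. Cry1 held CACGTT and CACGTG close together, 79 and 60 bases before the start. Cry2 held CACGTT 166 bases and Nr1d1 28 bases before the start. A match of letters is a description of the sequence and says nothing of which factor binds there.

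Over all 45101 probe sets, arrays of a group correlated at 0.989 to 0.996, and array medians lay between 6.46 and 6.55 log2 units. The 8 hepatocyte markers measured were among the brightest genes on the arrays. Markers of 6 enzymes of the exocrine pancreas, an organ that lies against the liver, were uneven between arrays. They averaged 10.96 in DEHP 2 h replicate 1, 9.76 in corn oil 72 h replicate 1 and 9.53 in corn oil 2 h replicate 2. DEHP 72 h replicate 1 averaged 9.19 and corn oil 2 h replicate 1 averaged 8.725, against 7.12 in the lowest array. The 15 immediate-early genes averaged 9.05 in corn oil 72 h replicate 1, where the highest other array held 7.68. In corn oil 8 h replicate 2 the 10 macrophage markers were 0.60 and the 9 endothelial markers 0.72 below their means over all arrays. The number 14 stood in the labels of both a corn oil and a DEHP array at 8 h, and these arrays correlated at 0.99.

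The control livers show the course over time without DEHP. At 8 h, compared with 2 h, the activators Arntl and Clock fell, Per2, Per3, Cry2 and Nr1d2 rose, and Nr1d1 fell. All differences are in log2 units from a linear model of the 8 group means, with its standard error, and a gene was called where the limma p adjusted over all 18194 genes was under 0.05. By this rule 7 of the 10 clock genes were called, against 4.06% of all genes, and in all 10 the arrays of the 2 times did not overlap, against 18.5% of all genes.

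Arntl, which encodes BMAL1, stood at 8.02, 8.28 and 7.95 on the corn oil arrays at 2 h. At 8 h the arrays held 6.79, 6.98 and 6.68, at 24 h 8.43, 8.38 and 8.00 and at 72 h 7.81, 8.19 and 8.65. The 8 h arrays were the low ones, and those of the other 3 times overlapped. The difference of 8 h from 2 h was -1.27 ± 0.20, 2.40-fold lower (adjusted p = 0.000596). Clock, which encodes its partner, stood at 8.12 ± 0.10 (SD, n = 3) at 2 h, 7.19 ± 0.07 at 8 h, 8.32 ± 0.23 at 24 h and 8.30 ± 0.35 at 72 h. It was low at 8 h too, by -0.93 ± 0.15 (adjusted p = 0.000763). Npas2, the alternative partner, had a dim probe set and stood at 5.39 ± 0.15, 4.91 ± 0.12, 5.75 ± 0.66 and 5.35 ± 0.47 at the same times. Its lowest mean was also at 8 h, and the difference from 2 h, -0.48 ± 0.26, was not called (adjusted p = 0.398).

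Among the repressors, Per3 had the widest course. Its corn oil arrays held 6.58, 6.61 and 7.03 at 2 h, 8.03, 7.90 and 8.43 at 8 h, 6.52, 6.42 and 7.00 at 24 h and 6.66, 6.64 and 6.40 at 72 h. Every 8 h array was above every other, and the remaining times overlapped. The rise from 2 to 8 h was 1.38 ± 0.18, 2.61-fold (adjusted p = 0.000124). Per1, which also answers to stress hormones and feeding signals, stood at 8.29 ± 0.11, 8.69 ± 0.16, 8.38 ± 0.34 and 8.87 ± 0.22 at 2, 8, 24 and 72 h, and none of the differences between times was called. Per2 stood at 7.27 ± 0.15, 7.67 ± 0.08, 7.41 ± 0.12 and 7.43 ± 0.18, with a rise of 0.40 ± 0.10 from 2 to 8 h (adjusted p = 0.0231). Cry2 varied little between replicates, at 7.83 ± 0.11, 8.17 ± 0.07, 7.81 ± 0.11 and 7.83 ± 0.08, and rose by 0.34 ± 0.08 (adjusted p = 0.0159). Cry1, the stronger repressor of the pair, had a dim probe set and stood at 5.39 ± 0.07, 5.12 ± 0.12, 5.85 ± 0.21 and 6.01 ± 0.62. Its means were low at 8 h, as for the activators, but no difference between times was called.

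The REV-ERB genes had their highest control means at different times. Nr1d2 stood at 10.01 ± 0.12, 10.74 ± 0.17, 9.76 ± 0.55 and 9.77 ± 0.23 at 2, 8, 24 and 72 h, with its peak at 8 h and a rise of 0.72 ± 0.20 (adjusted p = 0.0379). Nr1d1 was highest at 2 h, where the arrays held 9.47, 9.23 and 9.25, and then held 8.67, 8.67 and 8.60 at 8 h, 9.15, 8.51 and 8.52 at 24 h and 8.42, 8.48 and 7.85 at 72 h. Its 2 h arrays lay above all later ones. It fell by 0.67 from 2 to 8 h (SE 0.16, adjusted p = 0.0206). The calls of Arntl, Clock and Per3 between 2 and 8 h held in every refit without 1 array. That of Nr1d2 was lost whichever of the 6 arrays of these times was left out, with differences of 0.62 to 0.79. That of Per2 was lost without the first array at 2 h or the first or second at 8 h, that of Cry2 without the second at 2 h or the first at 8 h, and that of Nr1d1 without the first at 2 h or the second or the third at 8 h. Over these refits the differences were 0.32 to 0.47 for Per2, 0.28 to 0.38 for Cry2 and -0.71 to -0.59 for Nr1d1.

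From 8 to 24 h the course turned back, with 5 clock genes called against 2.57% of all genes. Arntl rose by 1.45 ± 0.20 and Clock by 1.13 ± 0.15, while Per3 fell by 1.48, Cry2 by 0.37 and Nr1d2 by 0.98. No clock gene was called by limma between 2 and 24 h or between 24 and 72 h, where 0.011% of all genes were called in each. An unadjusted p under 0.05 was found in 1 and 2 clock genes, and in 1396 and 1579 of all 18194 genes. Between 2 and 72 h Nr1d1 was the 1 clock gene called, against 0.104% of all genes, at -1.06 ± 0.16, 2.09-fold lower (adjusted p = 0.00713). Without the first corn oil array at 2 h that call was lost. Between 8 and 72 h the same 5 genes were called as between 8 and 24 h, against 1.91% of all genes. Cry2 lost its call against 24 h in 2 refits without 1 array and against 72 h in 5, and Nr1d2 lost its call against 72 h without the second corn oil array at 72 h.

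**Figure D1:**
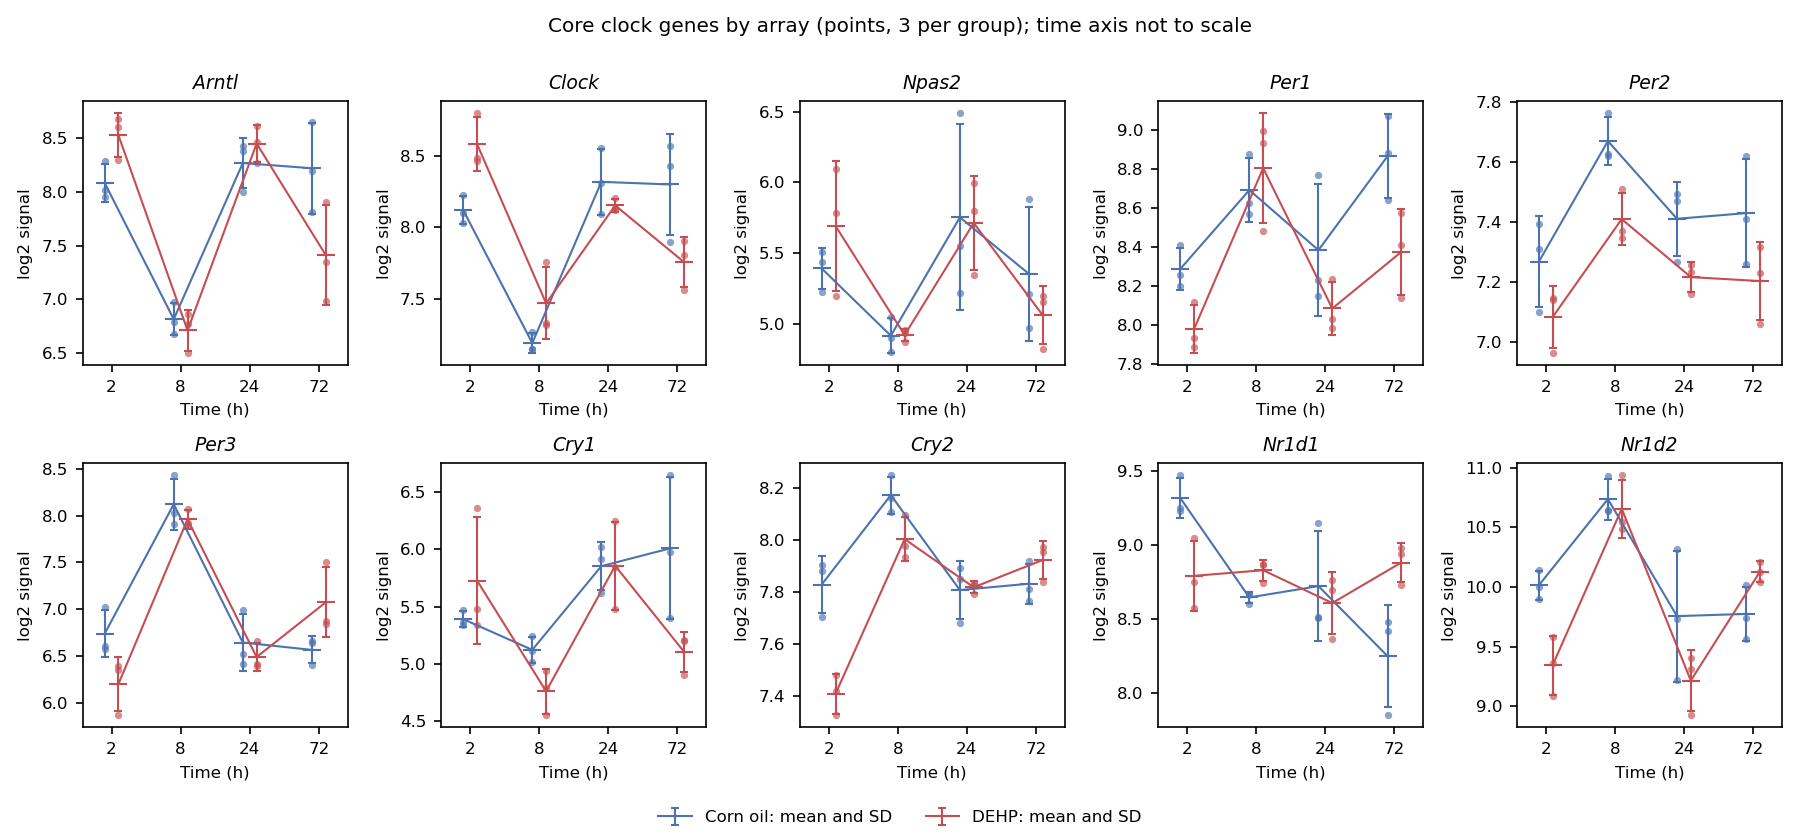
Log2 signal of the 10 core clock genes on every array (points) with the mean and SD of the 3 arrays per group (bars), corn oil in blue and DEHP in red, at 2, 8, 24 and 72 h (time axis not to scale). Arntl and Clock have their lowest means at 8 h in both treatments and Per3 and Nr1d2 their highest, and the red and blue means of Nr1d1 change order between 2 and 72 h.

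At 2 h DEHP livers differed from corn oil livers by a call in Cry2. This gene, which encodes a cryptochrome, stood at 7.90, 7.70 and 7.88 on the corn oil arrays and at 7.48, 7.33 and 7.42 on the DEHP arrays. All DEHP arrays were below all corn oil arrays. The difference was -0.42 ± 0.08, 1.34-fold lower (adjusted p = 0.0093), and Cry2 was the 1 clock gene of 10 called at 2 h, against 0.83% of all genes. The call did not hold without corn oil replicate 1, where the difference was -0.38, or without corn oil replicate 3, where it was -0.40.

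At 2 h the arrays of DEHP and corn oil did not overlap in 7 of the 10 genes, against 11.4% of all genes. Besides Cry2 these were Arntl and Clock, with higher values after DEHP, and Per1, Per3, Nr1d1 and Nr1d2, with lower values. Arntl held 8.60, 8.29 and 8.68 after DEHP (difference 0.44 ± 0.20, adjusted p = 0.539). Clock held 8.80, 8.49 and 8.47 after DEHP against 8.03, 8.23 and 8.10 (0.46 ± 0.15, adjusted p = 0.251). Both were above their controls on all 3 arrays, and neither passed the test. Nr1d1 held 8.58, 8.75 and 9.04 after DEHP (-0.52 ± 0.16, adjusted p = 0.216). Nr1d2 held 9.09, 9.58 and 9.37 against 10.00, 9.90 and 10.14 (-0.67 ± 0.20, adjusted p = 0.162). Per3 held 5.87, 6.35 and 6.39 (-0.54 ± 0.18, adjusted p = 0.294). These 3 were below their controls on every array, with no call. Per1 differed by -0.31 ± 0.16 and Per2 by -0.18 ± 0.10. Cry1 and Npas2 were spread most, and their highest DEHP values, 6.36 and 6.09, both came from replicate 1, the array with the highest pancreas markers. At 2 h the stellate cell markers averaged 8.19 to 8.30 on the corn oil arrays and 7.79 to 8.14 on the DEHP arrays, with 0 of 9 called by limma and 3 at an unadjusted p under 0.05. The hepatocyte markers averaged 13.74 on each corn oil array and 13.64 to 13.69 on the DEHP arrays, with 0 of 8 called by limma and 0 at an unadjusted p under 0.05. Of all 18194 genes, 1533 had an unadjusted p under 0.05 at 2 h. The part of any of these marker sets in the clock genes' values was not tested.

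At 8 h no clock gene was called by limma, against 4.13% of all genes. An unadjusted p under 0.05 was found in 2 clock genes, and in 2858 of all 18194 genes. The arrays were apart in 5 of 10 genes, against 18.6% of all genes. Clock was 0.28 ± 0.15 and Nr1d1 0.18 ± 0.16 above corn oil, and Per2 stood at -0.26 ± 0.10, Cry1 at -0.36 ± 0.25 and Cry2 at -0.17 ± 0.08. The trough of Arntl was at 6.50, 6.77 and 6.87 after DEHP, overlapping the controls. At 24 h again 0 of the 10 were called by limma, against 0.297% of all genes. An unadjusted p under 0.05 was found in 1 of them, and in 1480 of all 18194 genes. Per2 was the 1 gene with arrays apart, against 13.8% of all genes, at 7.26, 7.16 and 7.23 after DEHP and 7.47, 7.27 and 7.49 in corn oil (-0.19 ± 0.10, adjusted p = 0.645). Nr1d2 stood at 9.31, 9.41 and 8.93 after DEHP, below 2 of its 3 controls (-0.54 ± 0.20, adjusted p = 0.474). Without corn oil replicate 2, its lowest control, Nr1d2 was called at 24 h, at -0.81, and was then the 1 clock gene called.

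At 72 h Arntl, Clock and Cry1 were lower in DEHP livers and Nr1d1 was higher. This made 4 of 10 clock genes called, against 4.18% of all genes, and 5 of 10 with arrays apart, against 28.2% of all genes. Arntl held 7.90, 7.34 and 6.99 after DEHP against 7.81, 8.19 and 8.65. The first DEHP array was above the first corn oil array, and all others lay apart. The difference was -0.81 ± 0.20, 1.75-fold lower (adjusted p = 0.0249). Clock held 7.80, 7.90 and 7.56 against 7.90, 8.43 and 8.57. Its highest DEHP array and its lowest corn oil array were level, and the difference was -0.55 ± 0.15, 1.46-fold lower (adjusted p = 0.0416). Npas2 differed by -0.29 ± 0.26 (adjusted p = 0.545).

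Cry1 held 5.21, 5.20 and 4.90 after DEHP at 72 h against 5.40, 5.98 and 6.65. The DEHP arrays were all lower, and the corn oil arrays were spread over more than 1 log2 unit. The difference of -0.91 ± 0.25 was 1.88-fold lower (adjusted p = 0.0398). Nr1d1, the repressor of Arntl and Cry1, held 8.73, 8.94 and 8.98 after DEHP against 8.42, 8.48 and 7.85. All DEHP arrays were higher, by 0.63 ± 0.16 or 1.55-fold (adjusted p = 0.0327). The groups were also apart without a call in Per1, at 8.57, 8.41 and 8.14 against 9.07, 8.88 and 8.64 (-0.49 ± 0.16, adjusted p = 0.0765), in Per3, at 6.84, 6.88 and 7.50 against 6.66, 6.64 and 6.40 (0.51 ± 0.18, adjusted p = 0.112), and in Nr1d2, at 10.04, 10.13 and 10.21 against 10.02, 9.56 and 9.74 (0.35 ± 0.20, adjusted p = 0.306). Per1 had lower and Per3 and Nr1d2 higher values after DEHP. Cry2, the gene called at 2 h, differed by 0.09 ± 0.08 at 72 h.

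None of the 4 calls at 72 h held in every refit without 1 array. Those of Arntl, Clock and Cry1 were lost whenever the second or the third array of either treatment was left out, and those of Clock and Cry1 also without the first DEHP array. That of Nr1d1 was lost without the third control array or without the second or the third DEHP array. The differences kept their sign and ranged from -1.05 to -0.59 for Arntl, from -0.75 to -0.41 for Clock, from -1.21 to -0.59 for Cry1 and from 0.43 to 0.75 for Nr1d1. At 72 h the macrophage markers averaged 8.87 to 9.27 on the corn oil arrays and 8.30 to 8.66 on the DEHP arrays, with 4 of 10 called lower. The endothelial markers averaged 8.54 to 8.85 and 8.15 to 8.37, with 0 of 9 called by limma and 5 at an unadjusted p under 0.05. Of all 18194 genes, 3930 had such a p at 72 h. Also apart at 72 h were the hepatocyte markers, at 13.70 to 13.78 on the corn oil arrays and 13.57 to 13.62 on the DEHP arrays, with 2 of 8 called lower. So were 10 glucocorticoid-responsive genes, at 10.67 to 11.56 and 10.20 to 10.60, with 2 of 10 called lower. Tat is in both of these lists, and 4.18% of all genes were called at 72 h. All 4 sets were apart in the same direction as Cry1, and their part in the clock genes' differences was not tested. Without corn oil 72 h replicate 1, the array with high immediate-early genes, and corn oil 8 h replicate 2, the differences were -1.01 for Arntl, -0.75 for Clock, -1.21 for Cry1 and 0.71 for Nr1d1, all called.

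**Figure D2:**
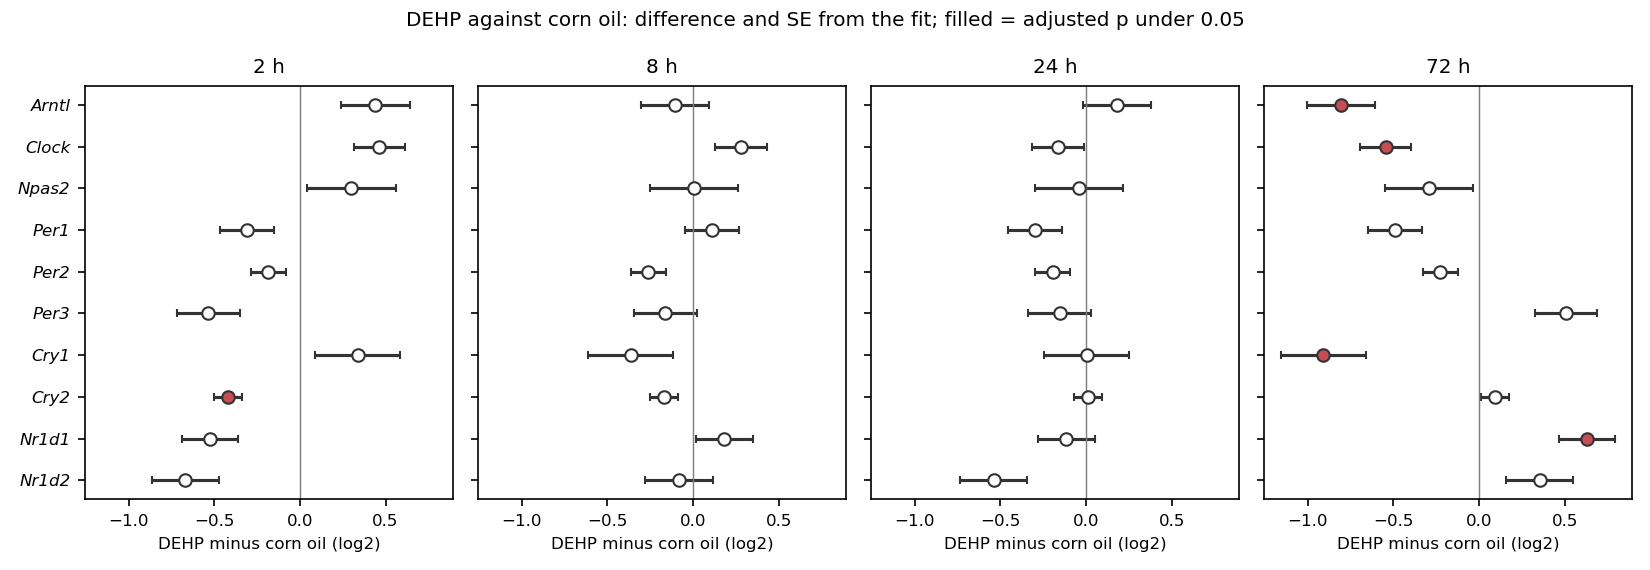
Difference of DEHP from corn oil (log2, with the standard error of the fit) for each core clock gene at 2, 8, 24 and 72 h, with filled points where the adjusted p was under 0.05. Cry2 is the filled point at 2 h, none is filled at 8 or 24 h, and Arntl, Clock, Cry1 (below 0) and Nr1d1 (above 0) are filled at 72 h.

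The differences at 2 and 72 h, which come from separate arrays, had opposite signs in 8 of the 10 genes, against 51.6% of all genes. At 72 h those of Cry2 (0.09 ± 0.08) and Npas2 (-0.29 ± 0.26) were close to their standard errors. The second probe sets of Arntl (-0.09 and -0.09) and Npas2 (0.17 and 0.03) kept the same sign at both times. The clock genes' levels correlated with one another, so these signs are not separate observations. The change of the DEHP difference from 2 to 72 h was tested itself and was called in 5 clock genes, against 2.34% of all genes. It was -1.25 ± 0.28 for Arntl (adjusted p = 0.02), -1.01 ± 0.21 for Clock (adjusted p = 0.0142), 1.04 ± 0.26 for Per3 (adjusted p = 0.0332), 0.51 ± 0.11 for Cry2 (adjusted p = 0.0189) and 1.15 ± 0.23 for Nr1d1 (adjusted p = 0.0103). Arntl and Clock went from above to below their controls, and Per3 and Nr1d1 from below to above. The call of Nr1d1 held in every refit without 1 array, with values from 0.96 to 1.28. Those of Clock (-1.21 to -0.88) and Cry2 (0.47 to 0.57) were lost in 2 of 12 such refits, without DEHP 2 h replicate 1 or DEHP 72 h replicate 3 and without corn oil 2 h replicate 1 or DEHP 72 h replicate 3. Those of Arntl (-1.49 to -1.03) and Per3 (0.83 to 1.16) were lost in 6 of 12. In Cry1 the change was -1.25 (adjusted p = 0.061) and in Nr1d2 1.02 (adjusted p = 0.052), without a call. Per1 and Per2 were below their controls at both times.

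Over all 4 times in 1 F test, DEHP differed from corn oil in Arntl, Clock, Cry2, Nr1d1 and Nr1d2, 5 of 10 genes against 6.46% of all genes. An F test that the DEHP difference varies with time called 3, Clock, Cry2 and Nr1d1, against 2.08% of all genes. Of these F tests, only that of Cry2 over all 4 times held in every refit without 1 array.

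**Figure D3:**
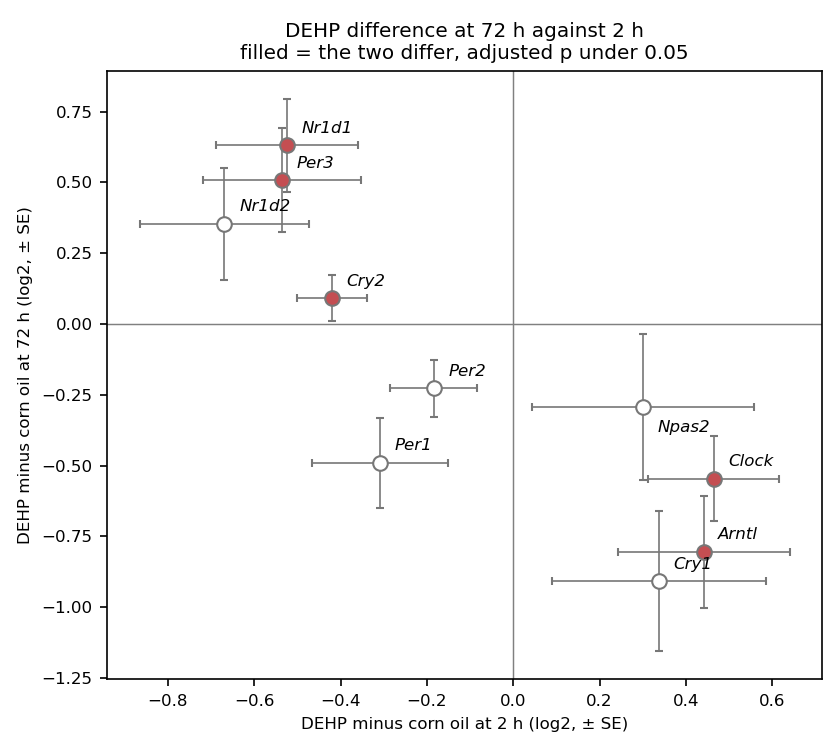
DEHP minus corn oil at 72 h (vertical) against the same difference at 2 h (horizontal), log2 with standard errors, for the 10 core clock genes, with filled points where the change between these times had an adjusted p under 0.05. Arntl, Clock, Cry1 and Npas2 lie at the lower right, Nr1d1, Per3, Nr1d2 and Cry2 at the upper left, and Per1 and Per2 at the lower left.

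Within the DEHP livers the course over time can be set beside that of the controls. At 2, 8, 24 and 72 h Arntl stood at 8.52 ± 0.20, 6.71 ± 0.19, 8.45 ± 0.17 and 7.41 ± 0.46 (SD, n = 3), with its lowest mean at 8 h. Clock stood at 8.58 ± 0.19, 7.47 ± 0.25, 8.15 ± 0.05 and 7.75 ± 0.18. Npas2 stood at 5.69 ± 0.46, 4.92 ± 0.05, 5.71 ± 0.33 and 5.06 ± 0.21. All 3 had their lowest mean at 8 h and their next lowest at 72 h.

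Per1 stood at 7.98 ± 0.12, 8.81 ± 0.28, 8.08 ± 0.14 and 8.38 ± 0.22 in the DEHP livers at these times, Per2 at 7.08 ± 0.10, 7.41 ± 0.09, 7.22 ± 0.05 and 7.20 ± 0.13, and Per3 at 6.20 ± 0.29, 7.96 ± 0.10, 6.49 ± 0.15 and 7.07 ± 0.37. The highest mean of all 3 was at 8 h. Cry1 stood at 5.73 ± 0.56, 4.76 ± 0.20, 5.86 ± 0.38 and 5.10 ± 0.17 and Cry2 at 7.41 ± 0.08, 8.00 ± 0.08, 7.82 ± 0.02 and 7.92 ± 0.07. Nr1d1 stood at 8.79 ± 0.24, 8.83 ± 0.07, 8.61 ± 0.21 and 8.88 ± 0.13 and Nr1d2 at 9.34 ± 0.25, 10.65 ± 0.24, 9.21 ± 0.26 and 10.13 ± 0.09. Cry1 was thus low and Nr1d2 high at 8 and 72 h, while the arrays of Nr1d1 overlapped between times.

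The differences between times followed these levels. From 2 to 8 h, 7 clock genes were called, against 4% of all genes. Arntl fell by 1.81, Clock by 1.12 and Cry1 by 0.97, and Per1 rose by 0.83, Per3 by 1.76, Cry2 by 0.60 and Nr1d2 by 1.31. Without DEHP 2 h replicate 1, the array with the highest pancreas markers, the difference of Cry1 was -0.65 and was not called. The call was also lost without DEHP 8 h replicate 2 or 3. From 8 to 24 h, 6 were called, against 5.55% of all genes, with Arntl at 1.73, Clock at 0.69, Cry1 at 1.10, Per1 at -0.72, Per3 at -1.47 and Nr1d2 at -1.44. From 24 to 72 h Arntl fell by 1.03 (adjusted p = 0.0213) and Nr1d2 rose by 0.91 (adjusted p = 0.048), 2 of 10 against 0.264% of all genes. The Nr1d2 call was lost without any 1 of the 6 arrays and the Arntl call without 4 of them. From 8 to 72 h the 2 called genes, against 6.79% of all genes, were Arntl at 0.70 and Per3 at -0.89. The Arntl call was lost without DEHP replicate 1 or 2 of either time. From 2 to 24 h Cry2 alone was called, at 0.41, against 1.86% of all genes. From 2 to 72 h, 5 were called, against 6.33% of all genes, with Arntl at -1.11, Clock at -0.83, Per3 at 0.87, Cry2 at 0.52 and Nr1d2 at 0.78. Without DEHP 2 h replicate 1, Per3 and Nr1d2 lost these calls and 3 remained, and Nr1d2 lost its call also without DEHP 72 h replicate 2 or 3 and with the mean of its probe sets. Nr1d1 was the flattest in the DEHP livers, where its 4 means spanned 0.27 log2 units and the F test over times missed (adjusted p = 0.737). In the controls they spanned 1.06 (adjusted p = 0.00289). The F test over times called 6 clock genes in the controls, against 3.55% of all genes, and 7 in the DEHP livers, against 10.2% of all genes.

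The other probe sets of these genes did not all show the same sizes. The second Arntl probe set, with a mean of 6.97, ranged from -0.14 to 0.10 over the 4 DEHP and 6 corn oil comparisons, and it correlated at 0.20 with the one used, so the course and the differences of Arntl rest on 1 probe set. Per2 had larger differences in a probe set with a lower mean, 6.81, which stood at -1.24 ± 0.26 for DEHP at 2 h and -0.79 ± 0.26 at 72 h, and the remaining Per2 probe set stood at -0.34 and -0.37. All 3 Per2 probe sets had lower values after DEHP at each of the 4 times. The 3 other Clock probe sets had the same signs as the one used at 2 and 72 h, with -0.35, -0.34 and -0.08 at 72 h. For DEHP at 8 h they stood at -0.05, -0.17 and 0.12, beside 0.28 in the one used, and from 2 to 8 h in corn oil at -0.31, -0.23 and -0.32, beside -0.93. All 6 Per3 probe sets had higher values after DEHP at 72 h, from 0.16 to 0.51. For DEHP at 2 h, 5 of the 6 had lower values, and the remaining one stood at 0.09, beside -0.54 in the one used. From 2 to 8 h in corn oil all 6 rose, the others by 0.07 to 0.68, beside 1.38 in the one used. The second Nr1d2 probe set stood at -0.17 ± 0.25 from 2 to 8 h in corn oil, opposite to the one used. For DEHP at 8 h it stood at 0.55 ± 0.25, beside -0.08 in the one used. Its DEHP differences at 2, 24 and 72 h had the same signs as the one used. When the probe sets of each gene were averaged, Arntl stood at -0.45 and Clock at -0.33 for DEHP at 72 h, with neither called. In corn oil the averaged Nr1d2 stood at 0.28 from 2 to 8 h, -0.67 from 8 to 24 h and -0.54 from 8 to 72 h, with none called. The DEHP difference at 72 h minus that at 2 h was then -0.62 for Arntl and 0.54 for Per3, again without a call. Per1, Cry1, Cry2 and Nr1d1 have 1 probe set each.

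**Figure D4:**
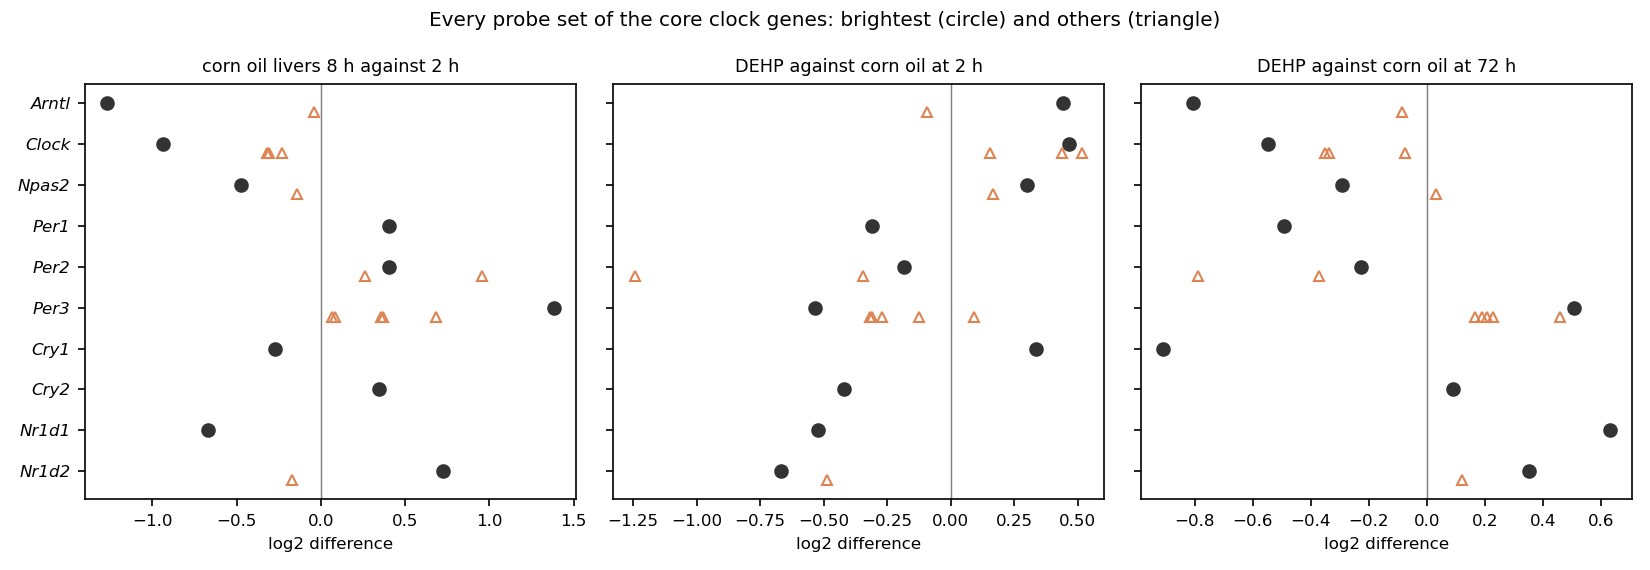
Log2 difference of every probe set of the 10 core clock genes, the brightest one used here as a circle and the others as triangles, for corn oil 8 h against 2 h and for DEHP against corn oil at 2 h and at 72 h. The second Arntl probe set lies near 0 in all 3 panels, and a Per2 probe set at -1.24 is the farthest point at 2 h.

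Over the 24 arrays the members' levels fell into groups, which are described here as they appeared and were not tested. Among Arntl, Clock, Npas2 and Cry1 the Pearson correlations were 0.66 to 0.89 in 6 pairs, and among Per1, Per2, Per3, Cry2 and Nr1d2 0.55 to 0.90 in 10 pairs. Between these groups they were -0.95 to -0.28 in 20 pairs. Nr1d1 correlated with the others at -0.54 to 0.17. The arrays share the 4 times and the treatment, so these values describe this design.

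Likeness was sought among genes other than the members, without those bearing a predicted, clone or placeholder symbol. There the level of Arntl was most like that of Nedd4l (r = 0.951), Chka (0.945) and Tubb2a (0.943), and its lowest correlation was with Dbp (-0.962). Clock was most like Nedd4l (0.929), Lgalsl (0.916) and Tubb2a (0.907), with its lowest correlation to Wee1 (-0.931). Per3 was most like Tef (0.956), Dbp (0.935) and Pcsk4 (0.926), Nr1d2 like Dbp (0.943), Arsa (0.922) and Tef (0.921), and Cry2 like Narf (0.860), Tef (0.855) and Fastkd1 (0.816). Tef and Dbp, both D-box factors, recur in these lists. Cry1 was most like Lonrf3 (0.849), Nr1d1 like Rbms3 (0.829), Per1 like Noct (0.766), Per2 like Marveld1 (0.851) and Npas2 like Creld2 (0.787).

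Beyond the core loop, 24 of 27 listed clock modifiers and 6 of 7 listed output genes were measured. No modifier was called by limma between DEHP and corn oil at any single time, where 0.83%, 4.13%, 0.297% and 4.18% of all genes were. An unadjusted p under 0.05 was found in 4, 2, 4 and 5 modifiers at 2, 8, 24 and 72 h. Over all 18194 genes it was found in 1533, 2858, 1480 and 3930. The F test over all 4 times called 1 modifier, Bhlhe40, a repressor of E-box transcription, against 6.46% of all genes (adjusted p = 0.0318). It stood at -0.73, -0.59, -0.77 and -0.77 (SE 0.29 each) after DEHP at these times and is named here after its values were seen. The median DEHP difference of the modifiers was -0.04, -0.09, -0.12 and -0.02 at 2, 8, 24 and 72 h. Over all genes it was -0.02, -0.02, -0.003 and -0.03. In corn oil from 2 to 8 h, where 4.06% of all genes were called, 3 modifiers were higher, Usp2 (a deubiquitinase, 1.81 ± 0.19), Nampt (the rate-limiting enzyme of NAD salvage, 0.89 ± 0.18) and Ciart (a repressor of the CLOCK and BMAL1 pair, 0.70 ± 0.13). Nfil3, the D-box repressor, was the 1 modifier lower, at -1.26 ± 0.30. At 8 h Nfil3 stood at 7.45, 7.48 and 7.13 after DEHP against 8.81, 8.26 and 7.84 in corn oil. The DEHP arrays were all lower, without a call (-0.96 ± 0.30, adjusted p = 0.0743).

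Of the 6 output genes, 5 were higher in corn oil at 8 h than at 2 h and 0 lower, against 4.06% of all genes called, with a median of 1.19 beside 0.01 over all genes. The largest of these was in Dbp, a D-box activator, at 3.37 ± 0.57. Tef, its relative, stood at 1.03 ± 0.15, Wee1, a cell cycle kinase, at 1.09 ± 0.17 and Noct, a phosphatase of NADP(H), at 1.30 ± 0.31. Between DEHP and corn oil 0 output genes were called by limma at 2, 8 and 24 h, against 0.83%, 4.13% and 0.297% of all genes. An unadjusted p under 0.05 was found in 3, 0 and 3 of them, and in 1533, 2858 and 1480 of all 18194 genes. At 72 h 1 output gene was called by limma, against 4.18% of all genes. It was Wee1, at 7.57, 7.97 and 7.90 after DEHP against 7.32, 6.97 and 6.92. All its DEHP arrays were higher, by 0.74 ± 0.17 (adjusted p = 0.0165). The F test over all 4 times called 3 of the 6, Dbp (adjusted p = 0.0128), Wee1 (0.0284) and Tef (0.0288), against 6.46% of all genes.

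Dbp had the widest differences of these genes. At 2 h it held 8.34, 7.45 and 9.67 in corn oil and 6.06, 6.59 and 5.96 after DEHP. The DEHP arrays were all lower, by a difference of -2.28 ± 0.57 that missed the threshold (adjusted p = 0.0646). At 72 h it held 8.96, 7.52 and 6.78 in corn oil and 8.56, 10.05 and 10.28 after DEHP, with overlap, and the difference of 1.88 ± 0.57 missed too (adjusted p = 0.0622). The change between these differences, 4.16 ± 0.81, passed (adjusted p = 0.00754), as did the F test that the DEHP difference varies with time (adjusted p = 0.0263). Tef and Wee1 also changed from 2 to 72 h, by 0.90 ± 0.22 and 0.99 ± 0.24. The order of these changes is that of Per3 and Nr1d1, below the controls at 2 h and above them at 72 h.

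**Figure D5:**
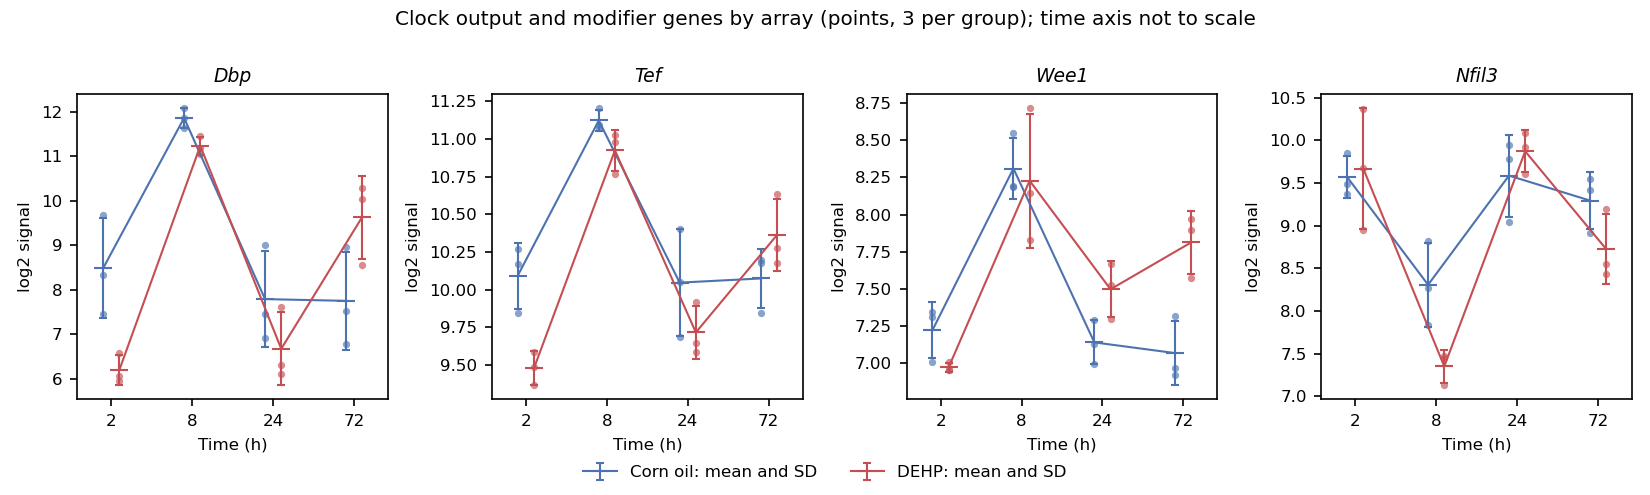
Log2 signal of Dbp, Tef, Wee1 and Nfil3 on every array (points) with the mean and SD of the 3 arrays per group, corn oil in blue and DEHP in red, at 2, 8, 24 and 72 h (time axis not to scale). Dbp and Tef are lower after DEHP at 2 h on all 3 arrays, and their DEHP means are above the corn oil means at 72 h.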

How the data were processed

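Whole-liver RNA was measured on Affymetrix arrays, 3 per group. The deposited values are log2 signals made by the authors with RMA, per the submitters' processing notes, for 45101 probe sets. RMA's version is not given in the sources used here. GEO's platform annotation named 35890 probe sets, 34958 with 1 gene symbol and 932 with several, which were left out with the 9211 unnamed ones. Each of 18194 genes was read from its brightest probe set, by the mean of all arrays. limma 3.58.1 (R 4.3.3) fitted 8 group means over 24 arrays without covariates, with 16 residual degrees of freedom, lmFit and eBayes, and Benjamini-Hochberg adjustment over all genes. No filter on dim probe sets was set, and the number of arrays limits the precision. Genes named as most alike were the 3 with the highest and the 1 with the lowest Pearson correlation. The members and genes with predicted, clone or placeholder symbols were left out of that search. Up to 4 other clock genes a list were named by the corn oil F test, besides those called after DEHP. RefSeq (GRCm38.p6) gave positions and promoter windows. The members, lists and tests were chosen with earlier results of these data known. The model did not use the replicate numbers to pair arrays. The model, but not the refits, was tested on simulated data.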

Additional observations from a re-analysis of the deposited data

Results flagged for a closer look

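In 5 clock genes the DEHP difference itself changed between 2 and 72 h by a direct test in the limma fit over all 24 arrays, and each is given with its standard error and adjusted p. The change, 72 h minus 2 h on the log2 scale, was -1.25 (SE 0.281, adjusted p = 0.02) for Arntl, with lower values after DEHP at 72 h and higher ones at 2 h. It was -1.01 (SE 0.214, adjusted p = 0.0142) for Clock. It was 1.04 (SE 0.26, adjusted p = 0.0332) for Per3, 0.512 (SE 0.114, adjusted p = 0.0189) for Cry2 and 1.15 (SE 0.233, adjusted p = 0.0103) for Nr1d1. The F test that the DEHP difference varies with time gave adjusted p = 0.0601 for Arntl, 0.0305 for Clock and 0.117 for Per3. It gave 0.0462 for Cry2 and 0.0337 for Nr1d1, so it did not call Arntl and Per3. The contrast of these times was added after the data had been seen.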

How the results depend on the processing

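Of 51 member differences called, 29 kept their call in every alternative setting other than leaving out 1 array, 27 in every refit without 1 array and 25 in all, as did 12 of 21 called F tests. No called difference changed sign in any setting run, and 33 of 119 uncalled ones did in at least 1. The count of clock genes called between DEHP and corn oil at 72 h, 4 in the report, was 2 with the mean of all probe sets, 2 after quantile normalization, 2 after median centring and 0 with only the arrays compared in the fit. With only those arrays it was also 0 for DEHP at 2 h and 0 for corn oil 72 h against 2 h. The count for DEHP at any time, 5, was 3 with the replicate block and 3 with a variance trend and robust estimation. The count for DEHP livers 72 h against 24 h, 2, was 1 with the replicate block, 0 with the mean of probe sets, 1 with the variance trend and 1 with median centring. The replicate block changed no other count of members by over 1.5 times. The mean of probe sets gave 1 for DEHP livers 72 h against 8 h and 3 for the change of the DEHP difference from 2 to 72 h. With the corn oil arrays 8 h replicate 2 and 72 h replicate 1 both left out, 4 genes were called in corn oil 8 h against 2 h. Leaving out each array in turn gave 0 to 1 for DEHP at 2 h, 0 to 0 at 8 h, 0 to 1 at 24 h and 0 to 4 at 72 h, 1 to 6 at any time, 0 to 4 for an effect that differs between times and 1 to 7 for its change from 2 to 72 h. It gave 4 to 6 for corn oil 8 h against 2 h, 4 to 6 for 24 h against 8 h, 0 to 1 for 72 h against 2 h and 3 to 5 for 72 h against 8 h. In DEHP livers it gave 6 to 8, 5 to 6, 0 to 1 and 1 to 2 for 8 h against 2 h, 24 h against 8 h, 72 h against 24 h and 72 h against 8 h, 1 to 1 for 24 h against 2 h and 3 to 5 for 72 h against 2 h. Over all genes, the 760 called for DEHP at 72 h became 566 to 1127 in the alternatives and 247 to 1095 without 1 array. The cause of these moves was not tested. Same-numbered corn oil and DEHP arrays of a time correlated at -0.351 to 0.144 in their deviations from the group means. This compares arrays within a time only, so it cannot exclude a batch that the replicate numbers share across groups. Replicate 1 of every group bore a label number from 1 to 8, and the other replicates numbers from 9 to 24. What these numbers stand for is not given. Npas2 and Cry1, with dim probe sets, were left out where genes above the 40th percentile alone were tested.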
